A study of Homo sapiens with 6 samples.

Results

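The long noncoding RNA (lncRNA) genes MALAT1, NEAT1, KCNQ1OT1, PVT1, CCAT1, TUG1, NORAD, MIR17HG and MIR22HG were followed in DLD-1 cells, a human colorectal cancer line. They were taken by name from the Ensembl identifiers of the count table, as well-studied RNAs of the nucleus, of the cytoplasm or of microRNA maturation. Of the 9 genes, 8 were matched to 1 of the 58051 genes of the table, and all 8 were among the 16974 genes tested. CCAT1 was not analysed here, because no table used here pairs its name with an identifier of the count table.

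Total RNA of 6 libraries was sequenced after removal of ribosomal RNA. In every culture the nucleoporin TPR, a protein of the nuclear pore basket, carried an auxin-inducible degron and NeonGreen (genotype AID-NeonGreen-TPR), and every culture received 200 nM Leptomycin B, an inhibitor of the export receptor CRM1, for 3 h as the treatment records and design text state, although the sample titles give 2 h. The LMB group (3 libraries) received nothing else, and the LMB+auxin group (3 libraries) also received 1 mM auxin for the last 2 h, to degrade TPR through the plant receptor TIR1 that the cells express from the RCC1 locus. The comparison asks which of these RNAs differ when auxin is added to remove TPR while CRM1 is blocked. All 6 libraries come from cells with the degron, so an effect of auxin itself cannot be told apart from TPR loss. Cultures without Leptomycin B were not analysed here, so what Leptomycin B alone does to these RNAs is unknown here, and TPR protein loss cannot be read from RNA counts.

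LncRNAs are transcribed and often spliced like mRNAs but act as RNA. MALAT1 is retained in nuclear speckles, which store splicing factors, and its 3′ end is cut to release a small tRNA-like RNA. NEAT1 is made as a short and a long isoform, of which the long one is the scaffold of paraspeckles. KCNQ1OT1 is a long nuclear RNA of an imprinted domain, transcribed from the paternal chromosome. PVT1 lies next to MYC, and TUG1 is found in both the nucleus and the cytoplasm. NORAD is a cytoplasmic RNA that binds Pumilio proteins, which repress target mRNAs. MIR17HG and MIR22HG are primary transcripts that the nuclear enzyme Drosha cuts to release microRNA hairpins. Whole-cell RNA was measured, so a shift of an RNA between nucleus and cytoplasm leaves no trace in these counts unless its amount also changes.

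The 2 microRNA hosts are shown first by the products they encode, because they had the lowest adjusted p-values of the members in the fit with a replicate block, described with the results. The mature strands were read from RefSeq on GRCh38.p14, with the seed, bases 2 to 8 that pair with target mRNAs, in capitals. The 6 strands from MIR17HG lie on the plus strand of chromosome 13 between chr13:91350618-91350640 (miR-17-5p) and chr13:91351361-91351382 (miR-92a-3p), and miR-22-3p lies on the minus strand at chr17:1713914-1713935. All 7 fall in exons of the host's GENCODE 44 gene model. MIR17HG strands carry 4 seeds: miR-17-5p and miR-20a-5p share 1, and so do miR-19a-3p and miR-19b-3p.
miR-17-5p: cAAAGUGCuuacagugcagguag
miR-20a-5p: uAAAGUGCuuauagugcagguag
miR-18a-5p: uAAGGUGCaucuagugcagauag
miR-19a-3p: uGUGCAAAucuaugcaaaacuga
miR-19b-3p: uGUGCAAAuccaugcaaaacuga
miR-92a-3p: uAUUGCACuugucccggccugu
miR-22-3p: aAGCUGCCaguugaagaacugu
Mature microRNAs were not measured by these libraries. The annotation places 13 hairpin genes inside the members on the same strand, of which 4, all in PVT1, have a row in the table. The highest mean count among those 4 was 0.333, so a ratio of hairpin to host, planned for a mean count of at least 20, could not be computed.

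NORAD is shown by its Pumilio motif, the feature through which it binds these proteins. The motif TGTANATA was searched on the RNA strand only, and overlapping matches were counted. The single 5401-base NORAD transcript held 15 matches, the first at base 819 and the last at base 4657, or 2.78 per kb. The 470 other lncRNA genes with a longest transcript of at least 5000 bases held 0.143 matches per kb together, and 49.8% of them had at least 1 match. NORAD's density was above that of 99.6% of these genes. TUG1 (0.268 per kb), NEAT1 (0.264 per kb) and KCNQ1OT1 (0.0982 per kb) were lower than NORAD. Their densities were above those of 82.98%, 82.55% and 52.34% of the 470 genes. MALAT1, PVT1, MIR17HG and MIR22HG held no match in their longest transcript. That transcript has 2450 bases in PVT1 and 2876 in MIR22HG, under the 5000-base minimum of the compared genes. Of the 15 NORAD matches, 10 read TGTATATA. The 3 forms of the motif found are shown in 4 of the 15, in transcript order, each with 11 bases on either side and the motif in capitals, from the minus strand of chromosome 20 in GRCh38.
NORAD match 1, chr20:36050182-36050211: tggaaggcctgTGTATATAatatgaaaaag
NORAD match 2, chr20:36049803-36049832: cctcactactgTGTATATAgttgacaatgc
NORAD match 3, chr20:36049702-36049731: aaatcacatttTGTAAATAcctttttgtta
NORAD match 5, chr20:36049492-36049521: tgtgtatatagTGTACATAaaggacagacg
A match is a description of the sequence, and binding was not measured.

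Total counts ran from 28261903 to 35992425 per library. Values are given as CPM, counts scaled to a common library total after TMM normalization, and genes were tested with edgeR's quasi-likelihood test with Benjamini-Hochberg adjustment. A gene was called at an adjusted p under 0.05 and a change of at least 1.3-fold. Libraries with the same replicate number deviated from their group means together, least clearly in replicate 3, so the fit was repeated with the number as a block. That pairing was taken from the same counts that were tested, while the study's methods describe the replicates as independent. Across all 16974 genes, 1 was called without the block (0.00589%) and 201 with it (1.18%), of which 150 were lower in LMB+auxin (0.884%). The summed CPM of 8 epithelial markers was 7687 to 7753 in LMB and 7533 to 8140 in LMB+auxin. None of 4 fibroblast markers passed the filter on low counts, and PTPRC and CDH5, which define leukocytes and endothelium, were at a mean of 0.0218 and 0.0440 CPM, while the highest markers of those lists were at 4.51 and 3.69 CPM. In a bulk library, fewer cells with an RNA and less RNA per cell cannot be told apart.

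Among the 8 lncRNAs, the microRNA hosts MIR17HG and MIR22HG were called lower in LMB+auxin with the replicate block, and no member was called without it. The other 6, the nuclear MALAT1, NEAT1 and KCNQ1OT1 among them, were called in neither fit. At an unadjusted p under 0.05 there was 1 member, MIR22HG, against 4.37% of all tested genes, and without the block DESeq2 and limma-voom called none either. With the block 4 of the 8 had an unadjusted p under 0.05 against 19.9% of all genes. No member had CPM ranges of the 2 groups that did not overlap, a pattern of 11.5% of tested genes. The median log2 fold change of the 8 was -0.10, against 0.00 over all tested genes and -0.04 over 2852 tested lncRNA genes.

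**Figure D1:**
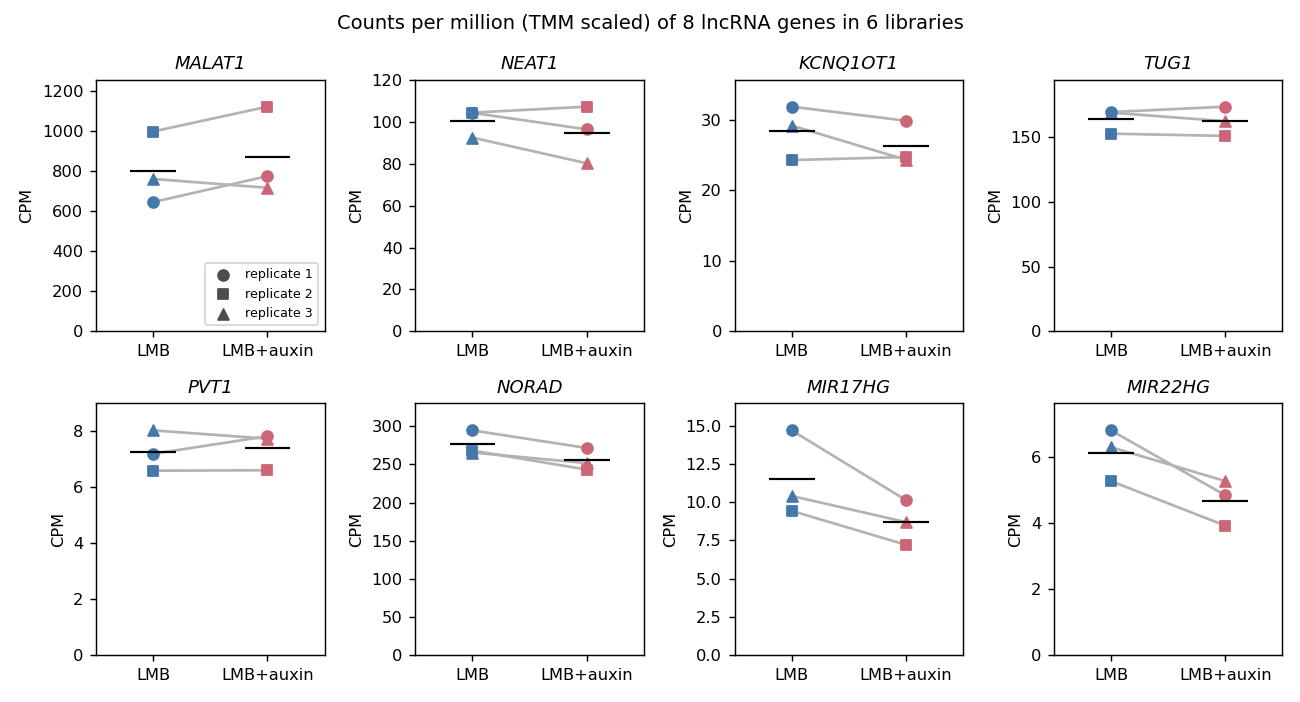
CPM of the 8 measured lncRNA genes in the 6 libraries; each panel has its own linear axis from 0, points are libraries, grey lines join libraries with the same replicate number and black bars are group means (n = 3). MIR17HG, MIR22HG and NORAD were lower in LMB+auxin in 3 of 3 pairs, and MALAT1 was highest in replicate 2 of both groups.

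MIR17HG (ENSG00000215417) lies at chr13:91347686-91397592 on the plus strand and hosts the miR-17-92 cluster, which promotes proliferation. In replicates 1 to 3 the level was 14.7, 9.43 and 10.4 CPM under LMB alone and 10.1, 7.21 and 8.69 CPM after auxin. Each LMB+auxin library was below the LMB library of its number, but the groups overlapped because LMB replicate 2 was below LMB+auxin replicate 1. The means were 11.5 ± 2.80 CPM (SD, n = 3) and 8.68 ± 1.46 CPM (SD, n = 3). Without the block the log2 fold change was -0.40 ± 0.18 (SE), with an edgeR adjusted p of 0.954. Under the block it was -0.40 ± 0.09 (SE), a level of 0.759 times LMB, with an edgeR adjusted p of 0.00136. Within the pairs the log2 difference was -0.53, -0.38 and -0.26. The blocked call was lost without pair 1, where the log2 fold change was -0.32 and the edgeR adjusted p 0.0598, and DESeq2 with the block gave an adjusted p of 0.215. Without LMB replicate 1, the highest library, the log2 fold change of the fit without the block was -0.19, and without LMB+auxin replicate 1 it was -0.53. Its counts ran from 210 to 424 per library, and the lowest has a counting error of 6.90%.

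MIR22HG (ENSG00000186594), at chr17:1711447-1717174 on the minus strand, is the host of miR-22, a microRNA linked to differentiation and lipid metabolism. Replicates 1, 2 and 3 had 6.79, 5.26 and 6.29 CPM under LMB alone and 4.83, 3.91 and 5.26 CPM after auxin. LMB replicate 2 and LMB+auxin replicate 3 were level at this precision, the other 2 LMB+auxin libraries were below all LMB libraries, and each was below its own pair. The means were 6.11 ± 0.78 CPM (SD, n = 3) and 4.67 ± 0.69 CPM (SD, n = 3). The log2 fold change was -0.39 ± 0.15 (SE) without the block, with an edgeR p of 0.0313 and an adjusted p of 0.954. With the block it was -0.39 ± 0.11 (SE), with an edgeR adjusted p of 0.0226. Its level of 0.765 times LMB lies just past the 1.3-fold threshold. The blocked call was lost without any 1 of the 3 pairs, with edgeR adjusted p-values of 0.162, 0.148 and 0.103. DESeq2 with the block gave an unadjusted p of 0.0364 and no adjusted p for it. Counts were 114 to 226 per library, so the counting error reached 9.37%. The span of MIR22HG overlaps that of WDR81 on the opposite strand, whose mean count was 1270, but their exons share no base in GENCODE 44.

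NORAD (ENSG00000260032) lies at chr20:36045618-36051018 on the minus strand as 1 exon of 5401 bases, without introns, and carries the motifs printed above. In replicates 1 to 3 the level was 295, 268 and 266 CPM under LMB alone and 272, 243 and 252 CPM after auxin. Each LMB+auxin library was below its pair, as in 20.5% of all tested genes, and the groups overlapped through LMB+auxin replicate 1. Its log2 fold change was -0.11 ± 0.07 (SE), with an edgeR adjusted p of 0.954, and with the block -0.11 ± 0.04 (SE), with an edgeR adjusted p of 0.130. Without LMB replicate 1 the unblocked value was -0.06, and without LMB+auxin replicate 1 it was -0.16. NORAD passed the threshold in neither fit, and its level of 0.925 times LMB is under the 1.3-fold limit.

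**Figure D2:**
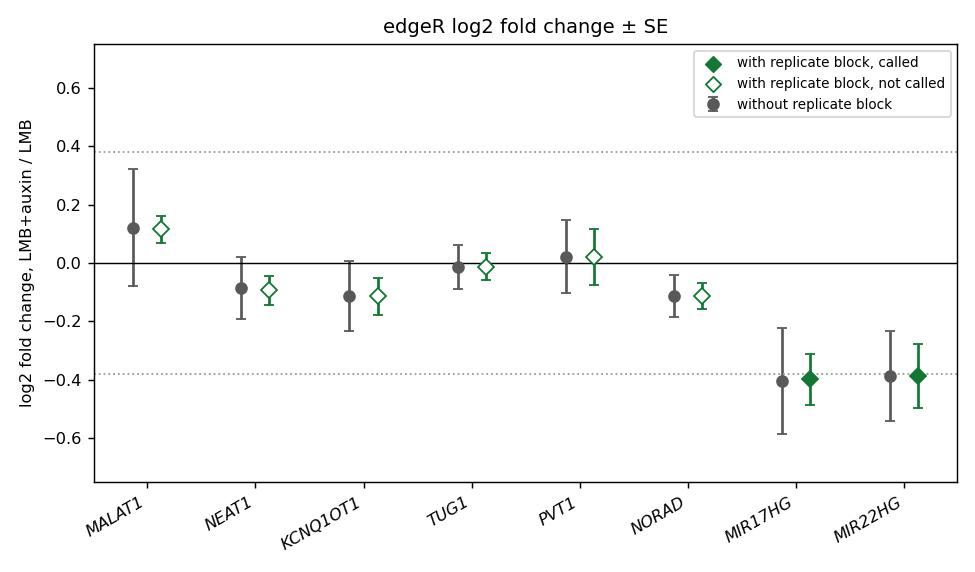
Log2 fold change of LMB+auxin over LMB for 8 lncRNA genes, with SE as error bars, from edgeR without (circles) and with (diamonds) the replicate block; dotted lines mark 1.3-fold and filled diamonds are calls. The estimates hardly differ between the fits while the SE is smaller with the block, and only MIR17HG and MIR22HG lie past the dotted line.

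MALAT1 (ENSG00000251562) lies at chr11:65497640-65508073 on the plus strand and was the member with the highest count. Replicates 1, 2 and 3 had 644, 996 and 759 CPM under LMB alone and 773, 1120 and 715 CPM after auxin. Replicate 2 was the highest library of each group, and the groups overlapped widely. The highest library was at 1.74 times the lowest, while the counting error at the lowest count, 18580, was 0.734%. The log2 fold change was 0.12 ± 0.20 (SE) without the block, with an edgeR adjusted p of 0.965. The block took up the difference between replicate numbers and gave 0.12 ± 0.05 (SE), with an edgeR adjusted p of 0.132. DESeq2 with the block gave 0.12 with a larger SE of 0.11 and an adjusted p of 0.693. Within the pairs the log2 difference was 0.26, 0.17 and -0.09. The direction was not shared by the pairs, of which 2 were higher and 1 lower in LMB+auxin, and it turned to -0.10 without LMB+auxin replicate 2 and to -0.01 without LMB replicate 1.

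The small tRNA-like product of MALAT1, known as mascRNA, has a row of its own as ENSG00000274072, 57 bases at chr11:65506117-65506173 on the plus strand. Its reference sequence is shown because it is a processed piece of a nuclear member.
mascRNA: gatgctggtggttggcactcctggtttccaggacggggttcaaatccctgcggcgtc
In replicates 1 to 3 it had 6, 4 and 6 counts under LMB alone and 0, 1 and 3 after auxin. The row did not pass the filter on low counts and was not tested. Reads of uncut MALAT1 cover the same bases, so these counts do not tell the small RNA from its precursor.

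NEAT1 (ENSG00000245532) lies at chr11:65422774-65445540 on the plus strand, next to MALAT1. In replicates 1 to 3 the level was 104, 105 and 92.6 CPM under LMB alone and 96.6, 107 and 80.3 CPM after auxin. Replicate 3 was the lowest library of each group, and 2 of 3 pairs were lower in LMB+auxin. The log2 fold change was -0.09 ± 0.10 (SE), with an edgeR adjusted p of 0.957, and with the block the adjusted p was 0.283. Without LMB+auxin replicate 3 the log2 fold change was 0.03.

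KCNQ1OT1 (ENSG00000269821) lies at chr11:2597308-2700003 on the minus strand, within the gene KCNQ1 on the opposite strand. Replicates 1, 2 and 3 had 31.9, 24.3 and 29.2 CPM under LMB alone and 29.9, 24.7 and 24.3 CPM after auxin. The groups overlapped, and replicate 2 was low in both. The log2 fold change was -0.11 ± 0.12 (SE), with an edgeR adjusted p of 0.954, and with the block the adjusted p was 0.309. With any 1 library left out it stayed negative, from -0.21 to -0.02.

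TUG1 (ENSG00000253352), at chr22:30969245-30979395 on the plus strand, had the narrowest relative range of CPM among the 8. GENCODE 44 classes the gene as protein-coding. In replicates 1 to 3 the level was 170, 153 and 169 CPM under LMB alone and 174, 151 and 162 CPM after auxin. Its highest library was at 1.15 times its lowest, and replicate 2 was the lowest in both groups. The log2 fold change was -0.01 ± 0.08 (SE), with an edgeR adjusted p of 0.991.

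PVT1 (ENSG00000249859), at chr8:127794526-128187101 on the plus strand, is amplified with MYC in many tumours. Replicates 1, 2 and 3 had 7.17, 6.57 and 8.01 CPM under LMB alone and 7.80, 6.59 and 7.72 CPM after auxin. The ranges lay almost on top of each other, and the log2 fold change was 0.02 ± 0.12 (SE), with an edgeR adjusted p of 0.991. Its sign, and that of TUG1, turned with single libraries left out, with values of at most 0.10 on either side of 0.

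Levels were compared between the members per length, as RPKM over the union of a gene's exons in GENCODE 44. In LMB, MALAT1 was at 76.6 ± 17.2 RPKM (SD, n = 3), NORAD at 51.1 ± 2.98, TUG1 at 16.1 ± 0.94 and NEAT1 at 4.42 ± 0.30. MIR22HG followed at 1.97 ± 0.25 RPKM, MIR17HG at 0.893 ± 0.217, KCNQ1OT1 at 0.307 ± 0.0415 and PVT1 at 0.285 ± 0.0284. Over all 6 libraries the ranges of neighbours in this order did not overlap, except those of KCNQ1OT1 and PVT1. The order was the same in LMB+auxin but for those 2, at 0.284 ± 0.0334 and 0.290 ± 0.0266 RPKM (SD, n = 3).
The place of PVT1 rests on the length used. Its 190 annotated transcripts cover 25431 exonic bases together, while the longest single transcript has 2450 bases. Per longest transcript PVT1 was at 2.96 RPKM in LMB, above MIR22HG at 2.13 and MIR17HG at 1.75 RPKM, and TUG1 was at 21.9 RPKM. MIR17HG has 12894 exonic bases in all and 6564 in its longest transcript, so its separation from MIR22HG also rests on the length used. NEAT1 has 22767 exonic bases in all and 22743 in its longest transcript, so both lengths are those of the long isoform. A level per length of the short isoform was not computed, so the place of NEAT1 below TUG1 holds for these lengths only.

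**Figure D3:**
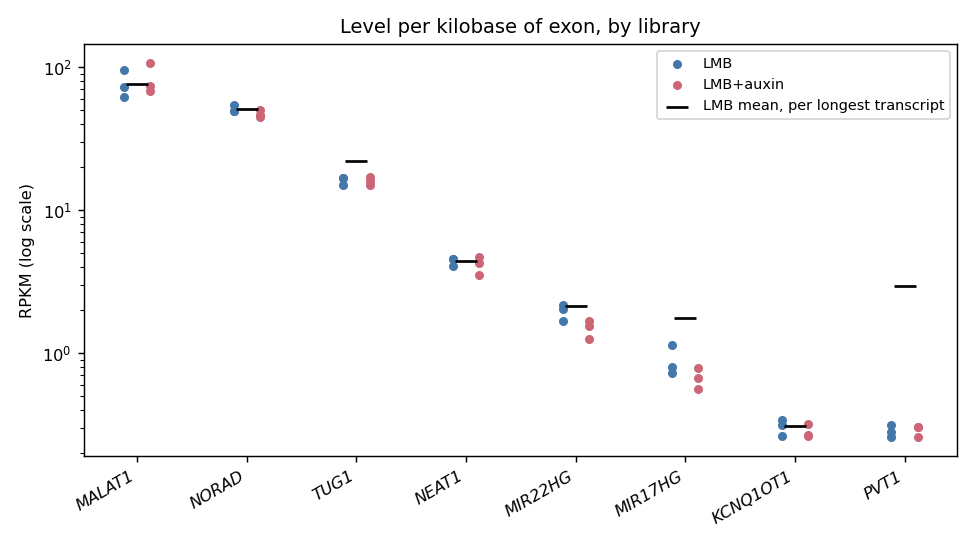
RPKM of 8 lncRNA genes in the 6 libraries on a log axis, per kilobase of all annotated exonic bases (points) and, as the LMB mean, per kilobase of the longest transcript (black dashes). MALAT1 and NORAD lie highest in both groups, and the dash of PVT1 lies about 1 order of magnitude above its points.

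Parts of the members can be followed through short RNA genes that the annotation nests in their exons. After these rows were seen, rows of type misc_RNA on the member's strand with a mean count of at least 20 were taken, and their count was set against that of the whole member. A read that touches 2 segments may be counted in both. Reads that lie only partly in a segment may also be counted there, so a share need not equal coverage of that part. Whether the shares depend on fragment length was not tested. The MALAT1 segment is 0.910% of the gene's exonic bases, and the TUG1 segments are 650 of 10151 exonic bases. The segment of MALAT1, 95 bases at 5274 bases from the gene's start, held 4.82 ± 0.18% of the MALAT1 count (SD, n = 3) under LMB alone and 4.32 ± 0.25% (SD, n = 3) after auxin. The LMB values were 4.88, 4.96 and 4.61% and the LMB+auxin values 4.09, 4.28 and 4.58% in replicates 1, 2 and 3. All LMB+auxin libraries were below all LMB libraries, by a small margin in replicate 3. The 4 segments of TUG1, 650 bases together, had 23.5 ± 0.80% of the TUG1 count under LMB alone and 22.5 ± 0.20% after auxin (SD, n = 3), again without overlap. A two-sided exact permutation test that ignored the replicate numbers gave p = 0.10 for each, the smallest p that 3 libraries against 3 allow. After adjustment over the 4 members with such segments it was 0.200. With the libraries taken as 3 pairs, the smallest p of an exact permutation test is 0.25, so neither form could pass 0.05.
The 3 segments of NEAT1 lie 499 to 1186 bases from its start, in the part that the short and the long isoform share. In replicates 1 to 3 their share was 8.16, 8.37 and 7.72% under LMB alone and 6.30, 7.80 and 7.37% after auxin. It was lower in 3 of 3 pairs, but the groups overlapped, and the exact permutation p was 0.20. In PVT1 a single 95-base segment held 23.9 ± 3.11% of the gene's count (SD, n = 3) under LMB alone and 24.9 ± 3.61% after auxin, and the exact permutation p was 0.70. No segment passed the threshold as a gene of its own: the unblocked fit gave edgeR adjusted p-values of at least 0.954 and the blocked fit of at least 0.246.

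**Figure D4:**
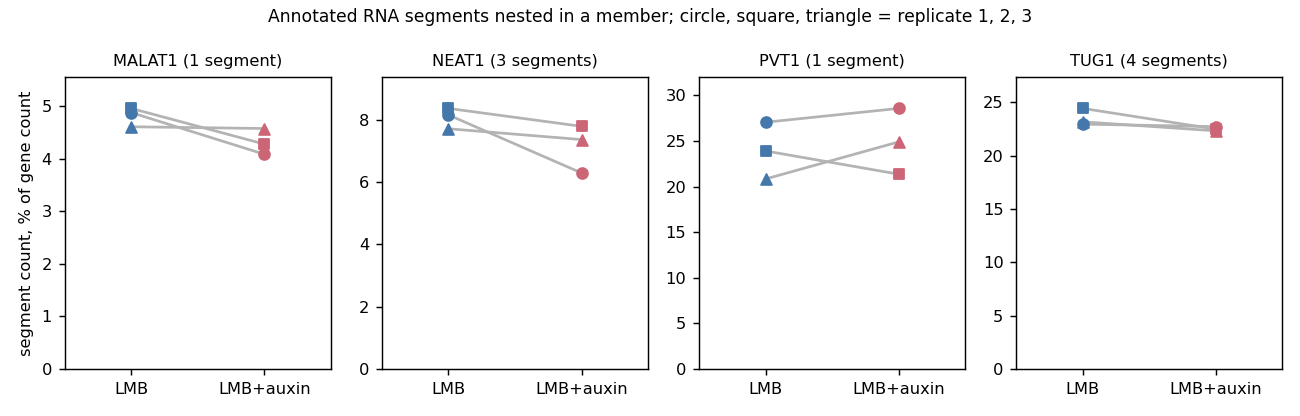
Summed count of the annotated segments nested in MALAT1, NEAT1, PVT1 and TUG1 as a percent of the member's count, by library; axes start at 0 and grey lines join libraries of the same replicate number. The MALAT1, NEAT1 and TUG1 shares were lower in LMB+auxin in 3 of 3 pairs, and the PVT1 share in 1 of 3.

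The nested rows also show how reads were counted. A segment wholly inside a MALAT1 exon has a count, so reads shared by genes were not discarded. Genes on the opposite strand within exons of the members had counts too: ENSG00000269987 covers 546 exonic bases of TUG1 and had a mean count of 668, or 13.2% of that of TUG1, and ENSG00000270117 covers 610 bases of MALAT1 with a mean count of 163. The study's methods name a stranded library kit, but the strand setting of the counting is not given in the sources used here, so sense and antisense reads at these positions cannot be told apart.

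The proteins and RNAs around the members were read from lists of known partners and neighbours. Among 20 tested paraspeckle protein genes, the partners of NEAT1, none was called with or without the block, and the median log2 fold change was 0.01. Of all tested genes 0.00589% were called without the block and 1.18% with it, so 0 calls say little about lists of 10 to 20 genes. With the block 7 of the 20 had an unadjusted edgeR p under 0.05, against 19.9% of all tested genes. PSPC1, a core paraspeckle protein, was at 103 CPM under LMB alone and 112 CPM after auxin with a blocked edgeR adjusted p of 0.124, RBM14 was at 86.2 and 79.1 CPM, and HNRNPK, the most abundant, was at 1164 and 1234 CPM. Of 20 tested nuclear speckle protein genes, the surroundings of MALAT1, none was called and the median was 0.00. With the block 2 of these had an unadjusted edgeR p under 0.05. The splicing factor gene SRSF3 was at 665 and 718 CPM, and the cyclin gene CCNL2 at 71.7 and 67.0 CPM. Of 10 tested genes of NORAD-binding proteins and Pumilio partners none was called, with a median of 0.06. Its sign turned with LMB replicate 1 left out, to -0.01, and with LMB+auxin replicate 2 left out, to -0.02. With the block 1 of these 10 genes had an unadjusted edgeR p under 0.05. PUM2 was at 76.6 CPM under LMB alone and 82.3 CPM after auxin, CDC5L at 181 and 189 CPM and RBMX at 492 and 509 CPM.

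Of 15 tested genes of microRNA processing none was called, with a median log2 fold change of 0.06 and values from -0.12 to 0.13. With the block 4 of the 15 had an unadjusted edgeR p under 0.05, against 19.9% of all tested genes. DROSHA, which cuts primary transcripts such as MIR17HG, was at 48.7 CPM under LMB alone and 53.3 CPM after auxin, with a blocked edgeR adjusted p of 0.161. TNRC6A, a partner of Argonaute in silencing, was at 102 and 94.3 CPM, and the helicase gene DDX5 at 651 and 686 CPM. Among 27 other tested microRNA host genes 16 had estimates below 0 and 11 above, with a median of -0.01. Over all tested genes 1.18% were called with the block, and of these hosts 1 was (3.70%). That was MIR210HG, host of the hypoxia-induced miR-210, at 3.99 CPM under LMB alone and 2.82 CPM after auxin, and its blocked edgeR fit gave a log2 fold change of -0.51 ± 0.13 (SE) and an adjusted p of 0.0114. The call was lost without pair 1 (adjusted p = 0.0784 in edgeR) and without pair 3 (0.263). MIR34AHG, host of the p53 target miR-34a, was at 2.17 and 1.56 CPM with a blocked edgeR adjusted p of 0.106, and MIRLET7BHG, the most abundant, was at 58.4 and 55.0 CPM. Whether microRNA hosts differ as a class was not tested.

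Of the other well-known lncRNAs, 10 mainly nuclear and 15 mainly cytoplasmic ones were tested, and none was called in either fit. With the block 1.18% of all tested genes and 1.75% of 2852 tested lncRNA genes were called. Among the nuclear RNAs the median log2 fold change was -0.05, and it moved to -0.10 with LMB+auxin replicate 1 left out and to -0.02 with LMB replicate 3 left out. FTX was at 6.997 and 6.24 CPM, HOTTIP at 27.9 and 26.1 CPM and the telomerase RNA TERC at 96.4 and 93.6 CPM. The cytoplasmic RNAs had a median of 0.00, with SNHG5 at 31.7 and 34.7 CPM, LINC00467 at 8.20 and 9.26 CPM and SNHG1 at 196 and 199 CPM, each as the LMB and the LMB+auxin mean. The difference between nuclear and cytoplasmic RNAs was not tested.

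With the block, 3 genes of these lists were called, and 2 of them come from the lists of genes in the chromosome regions of members. These 2 were 1 of 7 tested genes at 8q24 and 1 of 11 at 11p15, with 0 of 12 at 11q13. Over all tested genes 1.18% were called with the block, and whether neighbours differ as a class was not tested. At 8q24, CASC8, a lncRNA gene near MYC, was at 3.35 CPM under LMB alone and 4.62 CPM after auxin, and its blocked edgeR fit gave a log2 fold change of 0.46 ± 0.12 (SE) and an adjusted p of 0.0138. That call was lost without any 1 of the 3 pairs, with edgeR adjusted p-values from 0.0651 to 0.145. It was the only called gene of 7 tested there, and CYRIB was at 106 and 112 CPM. At 11p15, SLC22A18, a transporter gene of the imprinted domain that KCNQ1OT1 controls, was at 16.8 and 12.9 CPM. Its log2 fold change was -0.39 ± 0.08 (SE), with a blocked edgeR adjusted p of 2.93e-04. DESeq2 with the block did not call it, at an adjusted p of 0.106. Without pair 1 the edgeR value was -0.30, under 1.3-fold, and the antisense gene SLC22A18AS overlaps its span. The 11 tested genes there had a median of -0.18, with 9 estimates below 0, but the median was -0.03 with LMB replicate 2 left out, -0.01 with LMB+auxin replicate 1 left out and 0.01 with the block and no pair 1. NAP1L4 was at 253 and 276 CPM with a blocked edgeR adjusted p of 0.0984. At 11q13, around MALAT1 and NEAT1, 10 of 12 tested genes had estimates below 0, with a median of -0.09, and none was called. Of all 16974 tested genes, 8615 had estimates below 0, and whether these neighbourhoods differ from that share was not tested. MAP3K11, a kinase gene, was at 51.3 and 43.5 CPM and LTBP3, which binds latent TGF-beta, at 17.6 and 14.5 CPM. Both had edgeR adjusted p-values under 0.05 with the block (0.00427 and 0.0143) but changes under 1.3-fold. None of the 3 genes called with the block was called without it, where each had an edgeR adjusted p of 0.954.

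**Figure D5:**
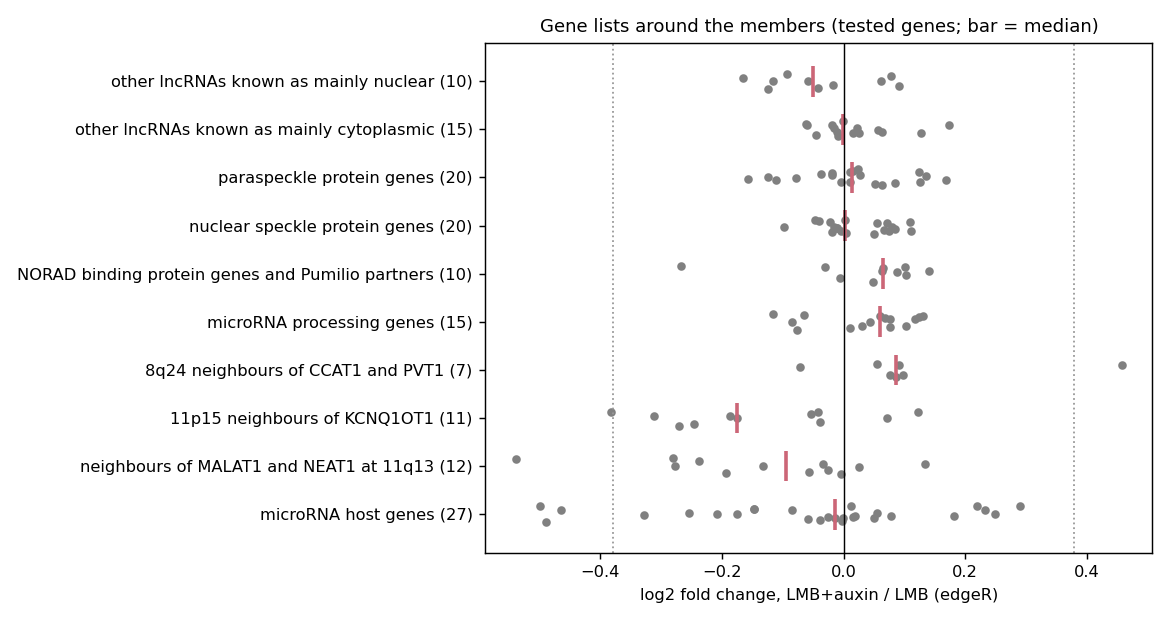
Log2 fold change of LMB+auxin over LMB, from edgeR without the block, for each tested gene (grey points, spread vertically at random) of 10 lists around the members; red bars are medians, dotted lines mark 1.3-fold and the number of tested genes stands in brackets. The medians lie between -0.18 for the 11p15 genes and 0.09 for the 8q24 genes.

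The gene most like each member over the 6 libraries was looked up among tested genes with a mean count of at least 1000 that do not overlap it. As Pearson's r of log2 CPM, MALAT1 was most like MTA3 (0.998), NEAT1 like CZIB (0.974), KCNQ1OT1 like TTI1 (0.983) and PVT1 like RBL1 (0.992). TUG1 was most like ERI2 (0.995), NORAD like PILRB (0.988), MIR17HG like FBXO45 (0.983) and MIR22HG like HPS6 (0.988). These values describe 6 libraries that all genes share, each as the best of 6318 to 6320 genes, and carry no test.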

How the data were processed

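Total RNA libraries (3 LMB, 3 LMB+auxin, grouped by the labels' treatment) were prepared with Ribo-Zero Gold and a TruSeq total RNA kit (standard per the labels, stranded per the methods) and sequenced. Per the submitters' processing notes the authors used CASAVA 1.8.2, STAR 2.6.1c and featureCounts 1.5.2 on GRCh38, while the methods name other STAR and featureCounts versions. The authors deposited whole-number counts for each Ensembl gene, not normalized. Strand and overlap settings are not given in the sources used here.

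Identifiers were matched to symbols, coordinates and exons through GENCODE 44 (GRCh38), a later release than the Ensembl 87 models used for counting. Genes with CPM above 1 in at least 3 of 6 libraries (16974) were fitted with edgeR 4.0.16 (TMM, estimateDisp, robust glmQLFit, glmQLFTest) in R 4.3.3. DESeq2 1.42.0 and limma 3.58.1 were alternatives. The fit was also run on simulated counts, whose outcome is not reported here and which cannot show how these libraries pair. SE is the absolute log2 fold change over the square root of the edgeR F statistic. The replicate numbers come from the sample titles. Deviations from group means of same-numbered libraries correlated at 0.53, 0.69 and 0.27 in replicates 1, 2 and 3, so the numbers were taken to pair the samples. Libraries of unlike number correlated at -0.57 to 0.15. Replicate 3 was the least clear, since LMB replicate 1 with LMB+auxin replicate 3 reached 0.15 and LMB replicate 3 with LMB+auxin replicate 1 reached 0.14. The pairing was read from the same counts that were tested. The methods state independent biological replicates. Counting errors cover counting only.

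The members and lists were chosen with earlier results of these data known. Named were all members and, from each list, the 2 tested genes of lowest p, the most abundant gene and every called gene. Where a list lacks one of these, it is not reported here. For each member the most correlated gene was also named. No group had more than 3 libraries, so no outlier test was run.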

Additional observations from a re-analysis of the deposited data

How the results depend on the processing

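The count of called members was 0 without the replicate block and under DESeq2, limma-voom, other scalings, no filter on low counts or any single library left out. It was 2 with the replicate block, and 1 with the block when replicate 2 or replicate 3 of both groups was left out, but 0 with the block when replicate 1 of both groups was left out and 0 by DESeq2 with the block, which gave no adjusted p for MIR22HG. Of the genes in the lists around the members, 3 were called with the block, 2 without replicate 2 of both groups and 1 without replicate 3 of both groups, against 0 otherwise. Beyond MIR17HG, MIR22HG, MIR210HG, CASC8 and SLC22A18 the block changed no call among the genes named. Over all genes 1 was called without the block, 201 with it, 11 by DESeq2, 30 by DESeq2 with the block and 39 without the filter. Of 187 alternative medians of the lists, 20 moved by more than the spread between the pairs. With single libraries left out the median turned sign for the NORAD partners (-0.0199 to 0.08), the paraspeckle genes (-0.0024 to 0.0356), the cytoplasmic lncRNAs (-0.0247 to 0.0315) and the other microRNA hosts (-0.044 to 0.0153). Of 136 alternative values for members, 11 had the opposite sign. With single libraries left out the log2 fold change ran from -0.10 to 0.32 for MALAT1, from -0.183 to 0.026 for NEAT1, from -0.038 to 0.101 for PVT1, from -0.0639 to 0.0387 for TUG1 and from -0.10 to 0.13 for SNHG1. With the block, PVT1 was at -0.0293 without replicate 1, TUG1 at 0.0151 without replicate 3 and MIRLET7BHG at 0.0371 without replicate 1. The PVT1 segment share differed by -0.804 to 2.805 percentage points. Per longest transcript the level of TUG1 was 21.9 RPKM in LMB and 21.7 in LMB+auxin, that of MIR17HG 1.75 and 1.32, and that of PVT1 2.96 and 3.01. Fewer libraries or another length are the construction of these alternatives, and the cause of the difference between edgeR and DESeq2 with the block was not tested. The ratio of hairpin to host and its variants were not run for lack of counts.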
